A study of Mus musculus with 7 samples.

Results

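The alpha-class glutathione S-transferase (GST) genes of the mouse were examined in C2C12 myotubes after electrical pulse stimulation (EPS). The members were the 5 symbols Gsta1, Gsta2, Gsta3, Gsta4 and Gm3776, which were all found among the 26607 genes listed for each library, so that 0 were missing. They were chosen by symbol, with their CPM difference between EPS and control in these same libraries already known. That difference is therefore given here as a description. The members' calls in the fit across all genes are counted below but support nothing.

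C2C12 is a mouse myoblast line that fuses into myotubes when growth factors are withdrawn, and EPS makes the cultured myotubes contract as a cell model of exercise. Poly(A) RNA was sequenced from 3 control libraries (replicates 1, 3 and 4), which received no stimulation, and from 4 EPS libraries (replicates 1 to 4). EPS ran for 24 h at 1 Hz, began 3 days after differentiation was started, and was followed by 1 h of rest. Both groups came from the same cell line, with no transgene or drug named in the labels.

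Alpha-class GSTs are cytosolic enzymes that join glutathione to electrophiles, which are compounds that react with protein and DNA, and some of them also reduce lipid hydroperoxides. They are abundant in liver and intestine, and several are known targets of the stress-responsive factor NRF2 and of the aryl hydrocarbon receptor (AHR). GSTA4 is known for its high activity toward 4-hydroxynonenal, an aldehyde formed when membrane lipids are oxidized. Mouse GSTA3 is known for conjugating the epoxide of aflatoxin, and GSTA1 and GSTA2 act on a broad range of substrates.

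Of the 5 genes, 4 lie within 173015 bases of chromosome 9 in the GRCm38 build (GENCODE M21 models). Gsta4 lies at chr9:78182774-78209349 on the plus strand. Gsta1 follows at chr9:78230656-78242684 and Gm3776 at chr9:78257129-78269166, both on the plus strand. Gsta2 lies at chr9:78331018-78355788 on the minus strand. The predicted gene Gm10639, at chr9:78289923-78305525, sits between Gm3776 and Gsta2. It is not a member, but its values are given because its sequence is close to theirs. Gsta3 lies apart, at chr1:21240589-21265661. Each of the 5 members has 7 exons in the transcript with the longest coding sequence.

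The members differ in how far their reads can be told apart. The coding sequences of Gsta1 and Gm3776 were 99.7% identical, with 2 differing positions in 669, and those of Gsta2 and Gm10639 were 98.5% identical. Gsta1 and Gsta2 were 97.6% identical. Gsta3 was 74.1% and Gsta4 was 66.5% identical to Gsta1. To show this closeness, coding bases 469 to 528, counted from the start codon, are printed 5′ to 3′ from the GENCODE M21 transcripts, with capitals where a gene differs from Gsta1.
Gsta1: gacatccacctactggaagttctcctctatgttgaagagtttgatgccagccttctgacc
Gm3776: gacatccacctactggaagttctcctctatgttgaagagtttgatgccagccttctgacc
Gm10639: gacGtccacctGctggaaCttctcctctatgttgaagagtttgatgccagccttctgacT
Gsta2: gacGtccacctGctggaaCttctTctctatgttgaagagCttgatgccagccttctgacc

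In this stretch Gsta1 and Gm3776 are the same, Gm10639 has 4 differences from them and Gsta2 has 5. The libraries were read at 100 bases per end. The 100-base windows of each transcript were searched, letter for letter, in all GENCODE M21 transcripts of other genes. Of those of Gsta1, 635 of 776 (81.8%) also occur in Gsta2, Gm3776 or Gm10639. The share was 85.5% for Gm3776, 35.0% for Gsta2, and for Gm10639 it was 268 of 894 windows. For Gsta3 it was 0 of 1358 windows and for Gsta4 0 of 878. How reads with several matches were assigned is not given in the sources used here. Separate values of Gsta1, Gsta2, Gm3776 and Gm10639 are therefore uncertain. No such shared window was found for Gsta3 and Gsta4 among the annotated transcripts, and sequence outside them was not searched.

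**Figure D1:**
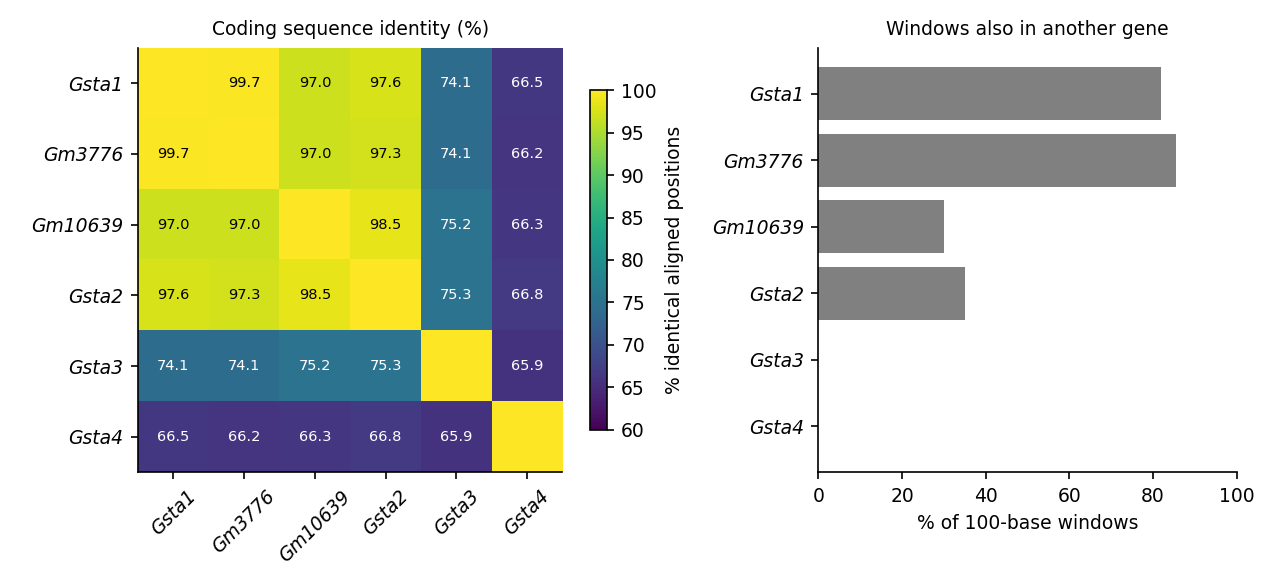
The left panel gives the percentage of identical aligned coding positions for each pair of genes, and the right panel the percentage of each transcript's 100-base windows that also occur in another gene of the group. Gsta1, Gm3776, Gm10639 and Gsta2 are 97.0% identical or closer, and Gsta3 and Gsta4 share no window.

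The deposited values are CPM, reads of a gene scaled to a common library total. Whole reads could be recovered from every value, with library totals of 16616917 to 22120641 reads. Control replicate 4 stood apart. It listed 14014 genes above 0, where each of the other 6 libraries listed 16144 to 16984. Genes with 1 to 5 reads numbered 359 in it and 2670 to 3181 elsewhere. A listing at 0 in that library is therefore weaker evidence of a low level than elsewhere. A count of 0 allows up to 3 reads, or 0.136 to 0.181 CPM depending on the library. Fold changes below are differences of mean log2(CPM + 1), which understate the change of genes near 0. In bulk libraries, more cells expressing a gene and more RNA per cell cannot be told apart.

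Gsta4, the 4-hydroxynonenal transferase, had the highest level per kilobase of transcript among the members in all 7 libraries. It was measured at 10.9, 11.9 and 9.49 CPM in control replicates 1, 3 and 4. In EPS replicates 1, 2, 3 and 4 it was 112, 235, 153 and 807 CPM. All EPS libraries lay above all control libraries, and the lowest EPS value was 9.48 times the highest control value. The mean was 10.8 ± 1.19 CPM (SD, n = 3) in control and 327 ± 324 CPM (SD, n = 4) in EPS, a log2 difference of 4.36 with a standard error of 0.57. EPS replicate 4 carried much of this mean: the ratio of mean CPM, EPS over control, was 30.4 with that library and 15.5 without it. Ranked by mean CPM among the listed genes, Gsta4 moved from place 8948 in control to place 463 in EPS.

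Gsta1 was close to the detection floor in control cells. Its control values were 0.233, 0.241 and 0.452 CPM, which stand for 4, 4 and 10 reads. The EPS values were 13.4, 38.0, 23.1 and 45.1 CPM in replicates 1 to 4. The groups did not overlap, and the EPS libraries differed among themselves by 3.38 times, the narrowest spread of the 5 members. The means were 0.309 ± 0.124 CPM (SD, n = 3) and 29.9 ± 14.4 CPM (SD, n = 4), with a log2 difference of 4.43 (SE 0.40). Its ratio of mean CPM was 96.8, and 80.4 without EPS replicate 4.

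Gm3776, the near-identical neighbour of Gsta1, had 1, 1 and 0 reads in the control libraries. EPS libraries held 72, 369, 144 and 312 reads, or 3.35, 18.0, 6.58 and 16.6 CPM. This was the member whose highest value came from EPS replicate 2 and not from replicate 4. Pooled over each group and scaled by total reads, the level in EPS was 303 times that in control, with a 95% exact counting interval of 83.6 to 2506. Without control replicate 4 the ratio was 183 (50.5 to 1514). Such intervals cover counting error only and leave out the spread between libraries. Duplicate reads were not marked by molecular identifiers, so the counting error itself may be larger than shown.

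Gsta2 had 0, 3 and 0 reads in the control libraries and 56, 198, 102 and 699 reads in EPS replicates 1 to 4. The EPS levels were 2.61, 9.65, 4.66 and 37.1 CPM, with a median of 7.15 CPM. The ratio of pooled reads, scaled by total reads, was 238 (95% exact counting interval 81.1 to 1154). It was 144 (49.0 to 697) without control replicate 4 and 104 (35.2 to 506) without EPS replicate 4. All 3 control reads came from control replicate 3. EPS replicate 4 was 6.59 times the mean of the other 3 EPS libraries. Without it the ratio of mean CPM, EPS over control, went from 224 to 93.7.

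Gsta3, the aflatoxin-epoxide transferase on chromosome 1, had the lowest EPS level of the members. It had 1, 1 and 0 reads in control and 7, 30, 12 and 88 reads in EPS, which is 0.326, 1.46, 0.548 and 4.67 CPM. All EPS values exceeded the control values, of which the highest was 0.060 CPM. The ratio of pooled reads, scaled by total reads, was 46.3 (95% exact counting interval 12.6 to 386), and 28.0 (7.59 to 233) without control replicate 4. The log2 difference was 1.15 (SE 0.43), on a scale that compresses levels so low. The ratio of mean CPM fell from 44.4 to 19.7 when EPS replicate 4 was left out.

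The predicted gene Gm10639 had 3, 0 and 0 control reads and 32, 100, 35 and 129 EPS reads, with a log2 difference of 1.98 (SE 0.40, adjusted p = 0.101 by limma). Because reads may have been exchanged among near-identical genes, Gsta1, Gsta2, Gm3776 and Gm10639 were also summed. The sum was 0.467 ± 0.0147 CPM (SD, n = 3; 8 to 10 reads per library) in control and 58.2 ± 37.9 CPM (SD, n = 4; 447 to 1990 reads) in EPS. The ratio of the sums was 125. Exchange of reads among these 4 genes leaves the sum as it is, whereas reads dropped as ambiguous would be missing from it.

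**Figure D2:**
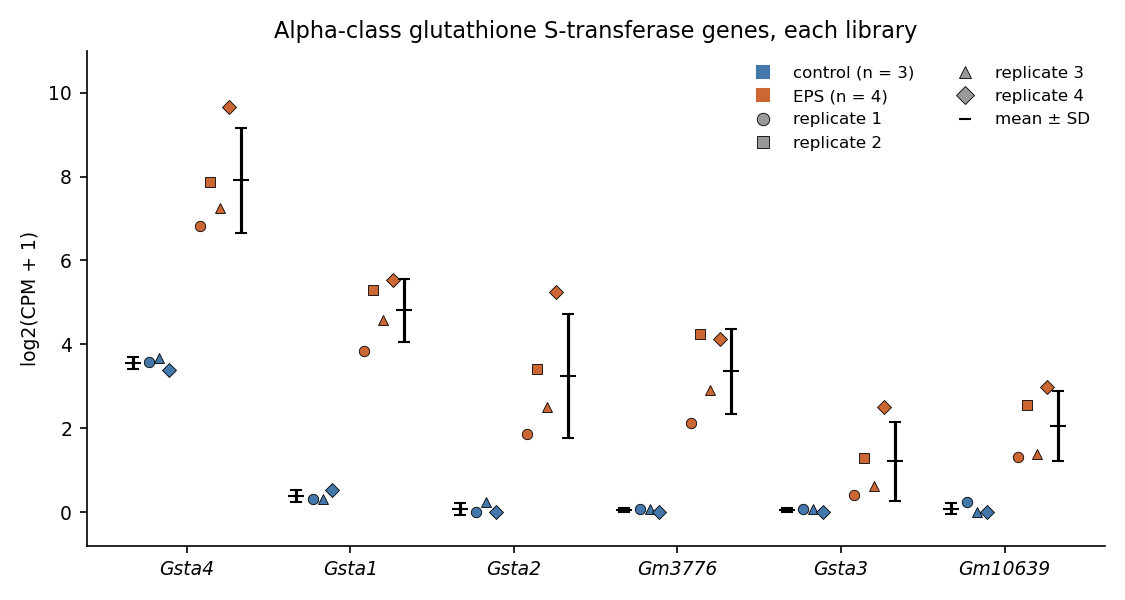
Each point is a library, as log2(CPM + 1), for the 5 members and Gm10639; blue marks control (n = 3), orange EPS (n = 4), marker shape the replicate number, and the black bar the mean ± SD of the group. For every gene shown, the EPS points lie above the control points, and Gsta4 is the gene with clear signal in control cells.

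In the fit across all 19144 genes with a read, 269 (1.41%) passed limma's unadjusted P under 0.01 with more than a 2-fold difference, 185 (0.966%) higher and 84 (0.439%) lower in EPS. After quantile normalization the split was more even, with 130 of 252 calls higher. Of the 5 members, 4 met that rule, all higher in EPS, and Gsta3 did not. Gsta3 also met it with a pseudocount of 0.1, with edgeR, with DESeq2 and without EPS replicate 1, and Gsta2 did not meet it at P under 0.001. An adjusted p under 0.05 (limma) was reached by 27 genes (0.141%), 19 of them higher in EPS (0.0992%), and 2 of the 27 were members, Gsta1 and Gsta4. With limma, that count of members was 0 without EPS replicate 3, 3 without EPS replicate 1 and 1 without control replicate 1, 3 or 4. It was 1 with quantile normalization and 5 with edgeR or DESeq2. All 5 members had every EPS library above every control library, as did 1485 genes (7.76%), while 546 genes (2.85%) had every EPS library below. The members entered the fit as all genes did, but these counts restate their choice and are read no further. Relative to other genes the median log2 difference was 0.10 over the 12256 genes with a mean of at least 1 CPM, and near 0 after quantile normalization (0.0052). The members' differences kept their sign under both scalings.

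Compared per kilobase of transcript, the EPS levels were 334 ± 332 CPM per kb for Gsta4, 34.2 ± 16.4 for Gsta1, 15.5 ± 18.4 for Gsta2, 12.7 ± 8.30 for Gm3776 and 1.20 ± 1.38 for Gsta3 (SD, n = 4). Gsta4 was above Gsta1 in 4 of 4 EPS libraries, by 5.53 times or more, with no overlap of ranges. Gsta1 was above Gsta2 in 4 of 4 libraries although their ranges overlapped, and the lowest ratio was 1.21. How reads shared by near-identical genes were assigned is not known, so the order of Gsta1, Gsta2 and Gm3776 is uncertain. Gsta2 exceeded Gm3776 in 1 of 4, so the order of that pair was not set beyond the spread. Gm3776 was above Gsta3 in 4 of 4 libraries without overlap. In control cells Gsta4 was above Gsta1 in 3 of 3 libraries, Gsta1 stood at 0.353 ± 0.142 CPM per kb (SD, n = 3), and the other 3 members had 3 reads or fewer per library.

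The make-up of the class is given as shares of reads, without correction for length. The share of Gsta4 and that of Gsta1, Gsta2 and Gm3776 together did not overlap between the groups, whereas that of Gsta3 did. Gsta4 gave 95.5% to 96.9% of the members' reads in control libraries and 77.8% to 88.6% in EPS libraries. Gsta1, Gsta2 and Gm3776 together gave 2.59% to 4.55% in control and 10.8% to 21.8% in EPS. Their control shares rest on 5, 8 and 10 reads in replicates 1, 3 and 4. Since Gsta3 gave few reads, this share and that of Gsta4 nearly mirror each other and are not separate results. The summed level of the 5 members was 9.95 to 12.4 CPM in control and 132, 302, 187 and 911 CPM in EPS replicates 1 to 4. EPS replicate 4 had the highest Gsta4 share, 88.6% (95% Wilson interval 88.2% to 89.1%), and EPS replicate 2 the lowest, 77.8% (76.7% to 78.8%).

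The members also varied among the EPS libraries. Over the 4 EPS libraries the log2(CPM + 1) range was 3.40 for Gsta2, 2.83 for Gsta4, 2.12 for Gm3776, 2.10 for Gsta3 and 1.68 for Gsta1. The median range of the 12256 genes was 0.56. The ratio of Gsta1 to Gsta2 reads was 5.12, 3.94 and 4.95 in EPS replicates 1, 2 and 3 and 1.22 in replicate 4. The libraries ranked 4, 2, 3, 1 from high to low for Gsta1, Gsta2, Gsta3 and Gsta4, and 2, 4, 3, 1 for Gm3776. Of the genes with a mean of at least 1 CPM, 2.28% had the former order, as did 32 of the 181 other genes called higher in EPS (17.7%). Whether EPS replicates 1 and 4 differ in culture, stimulation or handling was not tested.

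The genes with patterns most like those of Gsta4 and Gsta1 over the 7 libraries were found by the root-mean-square (RMS) difference of log2(CPM + 1), each gene centred on its control mean. Nearest to Gsta4 was Nqo1, the NAD(P)H quinone dehydrogenase, at 0.33 log2 units, followed by Gsta1 (0.49), Gsta2 (0.91), Gm3776 (0.95) and Adh7 (0.96), an alcohol dehydrogenase. Nearest to Gsta1 were Nqo1 (0.46), Gsta4 (0.49), Gm3776 (0.88), Adh7 (0.90) and Gsta2 (1.11). Gsta3 was far down both orders, at rank 93 from Gsta4 (2.43) and rank 128 from Gsta1 (2.49). This distance includes the size of the difference, which log2(CPM + 1) compresses for a gene as low as Gsta3, and its EPS libraries had the order of Gsta4 and Gsta1. Nqo1 was at 4.43, 5.60 and 5.92 CPM in control and 45.3, 164, 120 and 455 CPM in EPS replicates 1 to 4.

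**Figure D3:**
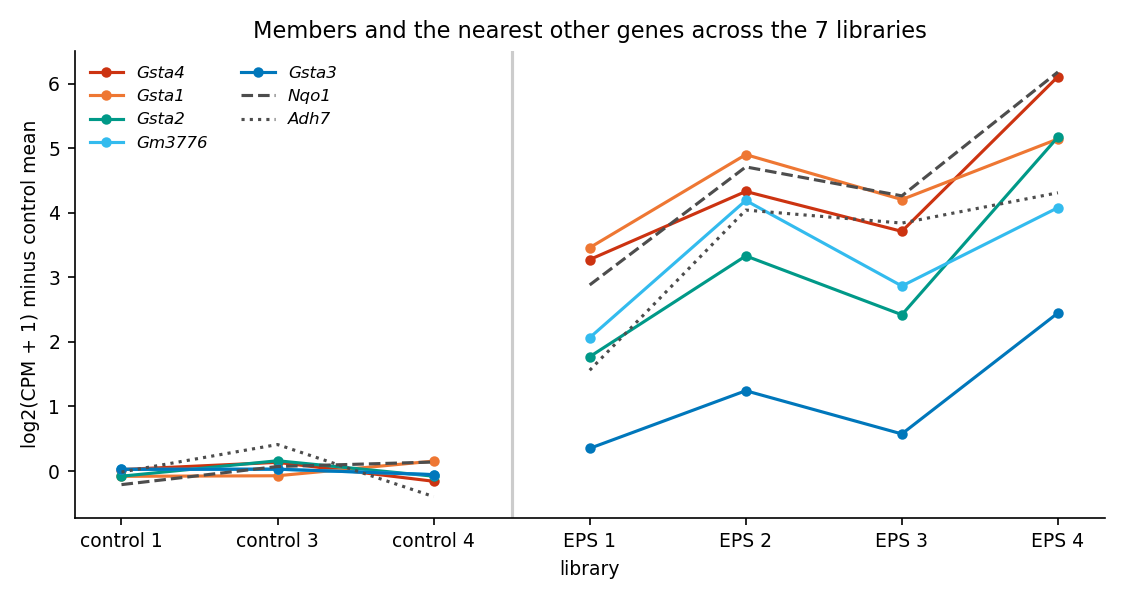
Lines give log2(CPM + 1) minus the control mean for the 5 members (colours) and for Nqo1 and Adh7 (grey) in each of the 7 libraries; the lines only join points of a gene within a group. Gsta4 and Nqo1 lie closest together, 0.33 log2 units apart by RMS difference, and EPS replicate 1 is the lowest EPS library for all 5 members.

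Genes beside the members were compared in the same fit. Of the 10 nearest genes with a read around the chromosome 9 cluster, 5 on each side and up to 198255 bases away, 0 were called in either direction by limma at P under 0.01 and more than 2-fold. At an unadjusted P under 0.05 there were 3 higher and 1 lower, and edgeR and DESeq2 each called 1, Rn7sk, lower. The log2 difference was -1.46 for Rn7sk, a small nuclear RNA, and 0.81 for Mto1, a mitochondrial tRNA-modifying enzyme. Rn7sk was at -2.29 and called lower without control replicate 1, and at -0.93 without control replicate 3. Mto1 was at 0.34 without control replicate 4. The median log2 difference of the 10 was 0.23. Ick, a kinase gene that ends 10667 bases before Gsta4, was at 32.9 ± 3.94 CPM (SD, n = 3) in control and 42.8 ± 2.98 CPM (SD, n = 4) in EPS, a log2 difference of 0.37. The 10 nearest genes with a read around Gsta3 lay up to 2496092 bases away. The 5 past its end lay 1020590 bases away or more, and some, such as Rims1 and Mir30a, had few reads. Of these 10 neighbours, 0 were called by limma, edgeR or DESeq2, and 2 had an unadjusted limma P under 0.05, both higher. Their log2 differences ran from -0.14 to 0.90, the highest being that of Paqr8, a membrane progestin receptor gene. Paqr8 was called higher by limma at a pseudocount of 0.1 (1.01) and without EPS replicate 1 (1.01).

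**Figure D4:**
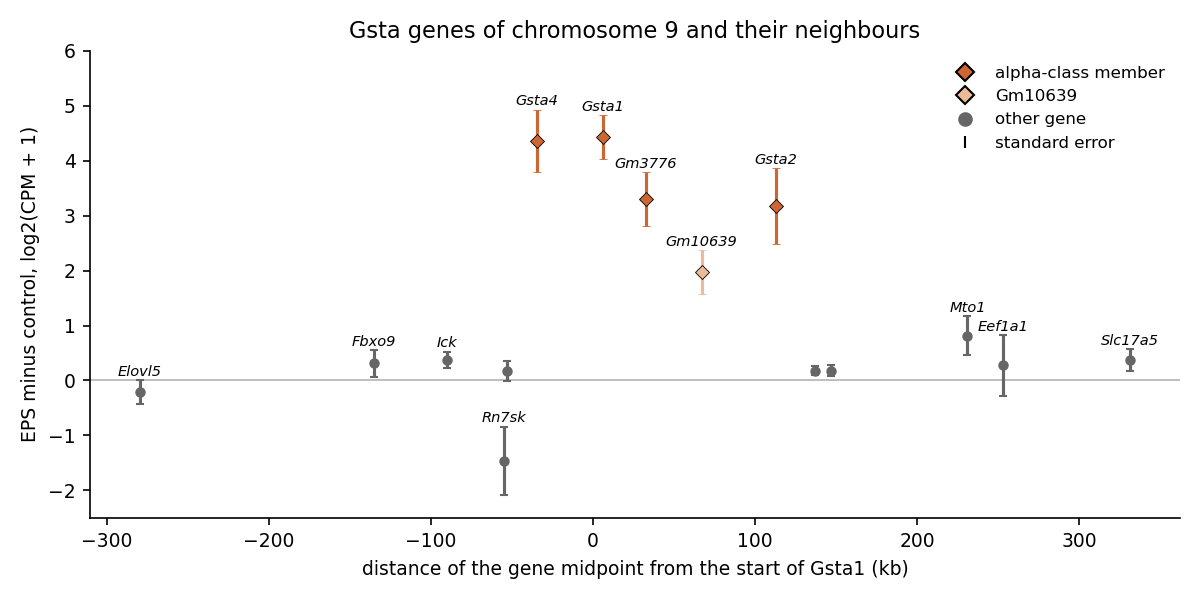
The difference of mean log2(CPM + 1), EPS minus control, is plotted with its standard error against distance from the start of Gsta1 in kb, for the Gsta genes of chromosome 9 (diamonds) and the 10 nearest other genes with a read (circles). The Gsta genes lie between 1.98 (Gm10639) and 4.43 (Gsta1), and the neighbours between -1.46 and 0.81.

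Start-site sequence was available from RefSeq (GRCm38.p6) for Gsta1, Gsta2, Gsta3, Gm3776 and Gm10639, as 300 bases each. The set of start-site windows used here held none for Gsta4, so Gsta4 was not searched. Since the AHR and NRF2 pathways are compared below, the windows were searched on both strands for GCGTG, the core of the AHR response element, and for TGACNNNGC, the core of the antioxidant response element bound by NRF2. GCGTG occurred at 1 place in Gsta1, Gm3776 and Gsta2, and was present in 32.4% of all 32851 windows of that length. TGACNNNGC occurred in Gsta3, and in 12.4% of all windows. The motifs were not found in Gm10639, which says only that these letters are absent from its window. The 30 bases around the match are shown 5′ to 3′ along each gene, with capitals marking the motif or, in Gm10639, the bases at the same place.
Gsta1, chr9:78230655-78230684, plus strand: cttactaaaggaGCGTGcacactcctctgg
Gm3776, chr9:78257128-78257157, plus strand: cttactaaagtaGCGTGcacactcctctgg
Gm10639, chr9:78289927-78289956, plus strand: cttactaaagtaTCGTGcacactcctctgg
Gsta2, chr9:78347135-78347164, minus strand: cttactaaagtaGCGTGcacactcctctgg
Gsta3, chr1:21240454-21240483, plus strand: aactcaggcaTGACATTGCatttttcttct

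Counted from 1 at the 5′ end of the Gsta1 window, Gm3776 and Gsta2 carry G11T, and Gm10639 carries G11T and G13T. G13T falls on the opening base of the motif. The RefSeq start of Gsta2 used here lies inside the longer GENCODE gene. Gm10639 was also higher in EPS, with 32 to 129 reads per EPS library. Of its 100-base windows, 268 of 894 also occur in the other 3 genes, so its reads may be theirs in part. Whether the motif bears on any of these levels was not tested. A match of letters is a description and not a binding site, and binding was not measured.

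GST genes of the other classes were counted in the same fit. Of 23 tested genes of the mu, pi, theta, omega, zeta and kappa classes, the microsomal transferases and related genes such as Hpgds, 5 rose and 0 fell in limma's test, with a median log2 difference of 0.29 beside 0.041 for all genes tested. Mgst2, a microsomal transferase, rose by 2.84 and Gstm1, of the mu class, by 2.40 (adjusted p = 0.0432, limma). Gstm1 was at 31.7 ± 8.34 CPM (SD, n = 3) in control and 178 ± 70.3 CPM (SD, n = 4) in EPS. Its limma adjusted p was 0.0223 to 0.122 when a library was left out, under 0.05 in 1 of 7 fits, and 0.0501 with quantile normalization. Gstp2 rose by 1.48, Gstp1 by 1.11 and Gsto2 by 1.10. The near-identical Gstp1 and Gstp2 may also share reads. The Gstp1 call was lost with DESeq2 and median-of-ratios scaling and the Gsto2 call with both other scalings, all just under 2-fold. Leaving out a library in turn kept the Gstp1 call in 4 and the Gsto2 call in 5 of 7 fits. Without control replicate 1 the count of risen genes was 3.

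Glutathione supply and conjugate disposal were counted next. Of 18 genes that make, recycle or provide reducing power for glutathione and thioredoxin, 4 rose and 1 fell. Gclm, the modifier subunit of glutamate-cysteine ligase, rose by 1.93 on the log2 scale, the thioredoxin reductase Txnrd1 by 1.55, and the NADPH-producing enzymes Pgd and Me1 by 1.22 and 1.04. The Me1 call was lost with edgeR (0.96), DESeq2 (0.95), quantile normalization (0.97) and median-of-ratios scaling (0.93), where the difference was under 2-fold. The Me1 and Pgd calls were each kept in 4 of 7 fits made without a library in turn. Chac1, which degrades glutathione, fell by 1.17, a call kept in 2 of 7 such fits. The catalytic subunit Gclc had a log2 difference of 0.77 and the cystine transporter Slc7a11 of -0.26, and neither passed. Without control replicate 3, or without EPS replicate 4, 2 genes of this list rose. Of 17 genes for export and further processing of conjugates, 1 rose, the transporter Abcc4, by 1.53. In this list 2 genes rose without control replicate 1, or without EPS replicate 1. Abcc1, a main exporter of glutathione conjugates, had a log2 difference of 0.84 and did not reach 2-fold.

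Of 27 tested NRF2 pathway genes, 12 rose and 0 fell, with a median log2 difference of 0.78. The leading genes were Nqo1 (4.51, adjusted p = 0.0450, limma), the haem oxygenase gene Hmox1 (2.71, adjusted p = 0.0443), Gclm (1.93) and the ferritin heavy chain gene Fth1 (1.70). In limma fits made without a library in turn, the adjusted p was 0.00871 to 0.135 for Nqo1 and 0.0105 to 0.122 for Hmox1, and for both it was under 0.05 in 1 of 7 fits, that without EPS replicate 1. With quantile normalization it was 0.0532 and 0.0501. Nfe2l2, which encodes NRF2, had a log2 difference of 0.28 and its inhibitor Keap1 of 0.26, and neither passed. The count was 7 without control replicate 1 and 6 without control replicate 3. The list was drawn up with results of these libraries known, so the count is not independent evidence of its direction.

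Of 12 tested AHR pathway genes, 6 rose and 0 fell, with a median log2 difference of 1.51. Aldh3a1, an aldehyde dehydrogenase, rose by 5.52, Cyp1a1, a cytochrome P450 induced through AHR, by 4.93, Nqo1 by 4.51 and the AHR repressor gene Ahrr by 2.72. The genes of the list differed in EPS replicate 1. Cyp1a1 had 1 read there and 1532 to 2630 in the other 3 EPS libraries, Ahrr had 26 against 283 to 344, and Tiparp, another AHR target, was at 59.5 CPM, within its control range. Aldh3a1, with 1589 reads, Nqo1 and Cyp1b1 were above all control libraries in EPS replicate 1, as were the members. Ahrr was only a little above them there, at 1.21 CPM against at most 0.875 CPM. Of the 12 tested genes, 8 had every EPS library above every control library, beside 7.76% of all genes tested. This list too was drawn up with results of these libraries known, so its counts are not independent evidence. With 0 control reads the fitted value of Cyp1a1 depends on the pseudocount and is no measure of its fold. It was 6.55 without EPS replicate 1, 4.90 with quantile normalization and 13.4 with edgeR. The limma call was lost with quantile normalization, and was kept in 1 of 7 fits made without a library in turn, that without EPS replicate 1. The Ahrr call was lost without control replicate 3. Ahr itself had a log2 difference of 0.53 and did not pass.

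Enzymes that act on lipid aldehydes, the substrates GSTA4 is known for, or on the lipid hydroperoxides they form from were also counted. Of 27 tested, 5 rose and 0 fell, with a median log2 difference of 0.38. They were Aldh3a1, Adh7 (3.44), the aldo-keto reductase Akr1c14 (1.78), the carbonyl reductase Cbr3 (1.23) and Prdx6 (1.22), a peroxiredoxin that reduces lipid hydroperoxides and not aldehydes. The Cbr3 call was kept in 3 of 7 fits made without a library in turn. Adh7 was at 12.1 ± 3.66 CPM (SD, n = 3) in control and 170 ± 93.7 CPM (SD, n = 4) in EPS. Over the 112 distinct tested genes of the 6 lists, 27 rose and 1 fell. Of these 28 calls, 17 held without control replicate 3, 19 without control replicate 1 and 26 without control replicate 4. Without EPS replicates 1, 2, 3 and 4 in turn, 27, 23, 25 and 20 held, and 16 held whichever library was left out. Chac1 was also the 1 gene of the 6 lists that was lower at an unadjusted limma P under 0.05, and the 1 that edgeR and DESeq2 called lower.

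**Figure D5:**
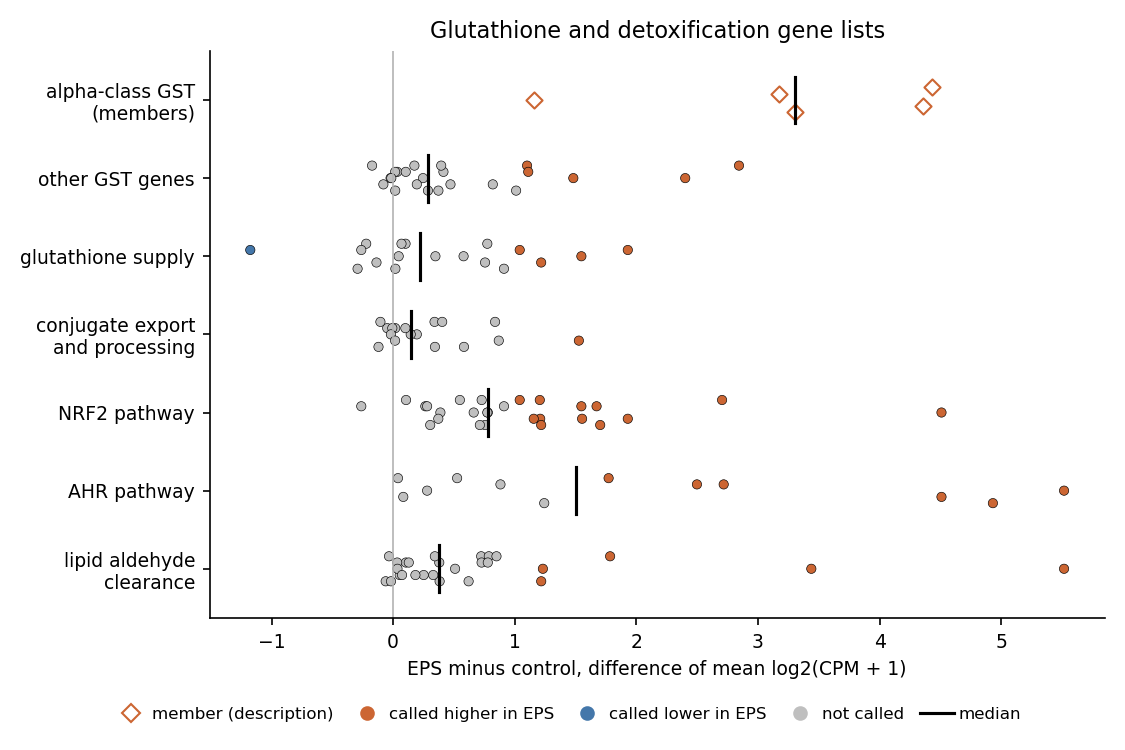
Each point is a gene, placed by its difference of mean log2(CPM + 1), EPS minus control; orange points were called higher, blue lower and grey not called by limma at P under 0.01 and more than 2-fold, open diamonds are the members, given as a description, and the black line is the list median. The NRF2 and AHR lists have 12 of 27 and 6 of 12 genes called higher, and 1 gene, Chac1, is blue.

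Markers of myotubes and of other cells were checked beside these results. The 14 myotube markers summed to 20389 to 26016 CPM in control and 13208 to 21459 CPM in EPS, and 1 of them, the fast myosin Myh4, fell by 2.48. Their median log2 difference was -0.51, beside 0.041 for all genes tested. At an unadjusted limma P under 0.05, Myh4 and Actn2 were lower, and edgeR and DESeq2 each called 3 lower, Myog, Myh4 and Actn2. The 6 markers of myoblasts and of the cell cycle summed to 352 to 431 CPM in control and 376 to 884 CPM in EPS. Of these 6, 0 were called by limma, and their median log2 difference was 0.53. At an unadjusted P under 0.05 there were 3 of them higher and 1 lower, and edgeR and DESeq2 each called Mki67 and Ccnb1 higher. The lower one was Myod1, a factor of the muscle lineage, at 132 ± 30.3 CPM (SD, n = 3) in control and 72.5 ± 22.4 CPM (SD, n = 4) in EPS, and the satellite cell factor Pax7 had a log2 difference of -0.12. Of 10 hepatocyte markers, cells in which alpha GSTs are abundant, 7 including Alb were at 0 reads in every library, and the sum stayed at or under 0.195 CPM. Of 8 epithelial markers Epcam and Fabp2 were at 0, Krt14 rose by 1.63, and the sum was 5.30 to 7.64 CPM in control and 13.1 to 14.5 CPM in EPS. Krt14 carried that difference, since Cdh1, the other epithelial marker above 1 CPM, had a log2 difference of -0.33. The part of these marker differences in the Gsta values was not tested.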

How the data were processed

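Poly(A) RNA from 7 libraries, 3 control and 4 EPS, was measured by directional paired-end RNA-seq. The authors mapped reads with STAR 2.5.4b to GRCm38 and deposited CPM per gene symbol and library; the annotation and the handling of reads with several matches are not given in the sources used here. All deposited CPM values gave whole reads (tolerance 0.01), for totals of 16616917 to 22120641. The labels do not say that libraries of a group came from separate cultures, so p-values measure only the spread between these samples.

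log2(CPM + 1) of 19144 genes with a read was fitted with limma 3.58.1 (R 4.3.3, trend, two-sided, Benjamini-Hochberg adjustment). Calls needed an unadjusted P under 0.01 and more than a 2-fold difference. edgeR 4.0.16 and DESeq2 1.42.0 on the recovered reads, other pseudocounts (0.5, 0.1), a mean of at least 1 CPM, other scalings, a replicate block, P under 0.001 and leaving out each library were alternatives. Sequences came from RefSeq GRCm38.p6 and GENCODE M21 and were aligned with Biopython 1.88. Members, pathway lists and rules were chosen with earlier results of these data known. Genes named were the members, Gsta cluster genes, up to 4 leading called genes per list (all where 5 or fewer), the 5 nearest neighbours on each side and the 5 nearest patterns to Gsta4 and Gsta1. Gclc, Slc7a11, Abcc1, Nfe2l2, Keap1, Ahr, Tiparp, Cyp1b1, Hpgds and the markers Myh4, Actn2, Myog, Mki67, Ccnb1, Myod1, Pax7, Krt14, Cdh1, Alb, Epcam and Fabp2 fall outside this rule and were named after their values were seen.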

Additional observations from a re-analysis of the deposited data

How the results depend on the processing

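The 5 members were higher in EPS under all alternatives run. Their log2 difference depended on the pseudocount: at 0.5 it was 5.10 for Gsta1 and 4.16 for Gm3776, and at 0.1 it was 6.09 for Gsta1, 5.87 for Gsta2, 3.13 for Gsta3 and 6.06 for Gm3776. edgeR gave 6.41 for Gsta1, 7.70 for Gsta2, 5.25 for Gsta3 and 7.92 for Gm3776, and DESeq2 gave 6.43, 7.77, 5.44 and 8.12. The control reads of 0 to 10 limit these values. Leaving out each library in turn gave 4.19 to 4.75 for Gsta1, 2.51 to 3.64 for Gsta2, 0.72 to 1.42 for Gsta3, 3.77 to 4.72 for Gsta4 and 3.004 to 3.712 for Gm3776. Over all genes, 269 calls (185 higher, 84 lower) became 601 (445, 156) at pseudocount 0.1, 629 (329, 300) with edgeR, 585 (317, 268) with DESeq2 and 106 (71, 35) at P under 0.001. With quantile normalization 130 of 252 calls were higher, and with median-of-ratios scaling 134 of 254. Leaving out a library gave 209 to 325 calls, 140 to 232 higher and 57 to 110 lower. An adjusted p under 0.05 was reached by 27 genes with limma, 106 at pseudocount 0.1, 121 at a mean of at least 1 CPM, 17 with quantile normalization, 290 with edgeR and 497 with DESeq2. It ranged from 0 to 27 when a library was left out. The count was 5 without control replicate 1, 6 without control replicate 3 and 5 without control replicate 4. It was 8 without EPS replicate 2, 0 without EPS replicate 3 and 4 without EPS replicate 4. With all 7 libraries limma had 2224 genes at an unadjusted P under 0.05. Of the pathway genes 27 rose; 12 did at P under 0.001, where 0 fell, and 18 to 30 rose and 0 to 1 fell when a library was left out.

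A control and an EPS library with the same replicate number, each centred on its group mean, correlated at r = 0.245 (number 1), -0.447 (number 3) and 0.068 (number 4) over 12256 genes. Pairs with different numbers gave -0.465 to 0.586. The numbers are therefore not taken to pair the libraries. The replicate block leaves EPS replicate 2, which has no control of its number, without weight. With the block, limma called 161 genes, 99 of them higher, 17 pathway genes higher, and 3 members, Gsta2 being lost. The block fit with limma gave 0 genes at an adjusted p under 0.05 and 1628 at an unadjusted P under 0.05. Without EPS replicate 2 and without the block, limma called 275 genes, 165 of them higher, and 22 pathway genes higher. edgeR and DESeq2 were run without the block. The cause of these shifts was not tested.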
